A study of Mus musculus with 12 samples.

Results

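A set of 43 genes of the kinetochore, the spindle assembly checkpoint and the mitotic spindle was followed in NIH3T3, an established mouse embryonic fibroblast line. The genes were listed by name, and no measured value enters the rule that picks them, although earlier results of these data were known when the list was made. Of these, 41 of the 43 had a matched probe among the 17178 named genes of the array. Cenpl, of the inner kinetochore, and Incenp, the scaffold of the chromosomal passenger complex, were not matched and are not analysed here. Cultures were kept for 18 h in rapamycin at 50 nM, in PP242 at 2 µM or in the solvent DMSO, and 4 cultures of each group were hybridised to 1 Agilent one-colour array each. The series' text describes the 4 of a group as independent experiments. The labels give the PP242 dose as 2 µM except in the treatment protocol, which gives the same figure in mM. No label names a genetic change, and the groups share the line and its serum-containing medium. The design asks how both drugs change gene expression in the same cells: rapamycin is a partial inhibitor of the mTOR kinase that acts mainly on mTOR complex 1, and PP242 blocks the kinase's active site.

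The kinetochore is the protein structure that joins a chromosome's centromere to spindle microtubules. An inner layer sits on centromeric chromatin, an outer layer binds microtubules, and checkpoint proteins on unattached kinetochores hold back anaphase until every chromosome is attached. Most of these genes are transcribed late in the cell cycle, so their RNA is low in cells that have left the cycle. Their late transcription is known to involve the cell cycle genes homology region (CHR), bound by the DREAM and B-MYB complexes, and the CCAAT box, bound by NF-Y. In bulk RNA, fewer dividing cells and less RNA per dividing cell cannot be told apart.

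Promoter windows from RefSeq (build GRCm38.p6) were matched for 37 of the 43 genes. The last 150 bases before a listed start are shown for 6 genes, 5′ to 3′ on the gene's strand, with CHR (TTTGAA or TTCGAA) and CCAAT matches on either strand in capitals, so that ATTGG is a CCAAT match and TTCAAA a CHR match on the opposite strand. They are Prc1 and Bub3, which hold both motifs there, and Cenpa and Bub1b, which had the largest falls with PP242 by the brightest probe. The others are Cenpt and Cenpb, which did not pass the test for PP242. All 6 genes were chosen after these values were seen.
Prc1, chr7:80294326-80294475, plus strand: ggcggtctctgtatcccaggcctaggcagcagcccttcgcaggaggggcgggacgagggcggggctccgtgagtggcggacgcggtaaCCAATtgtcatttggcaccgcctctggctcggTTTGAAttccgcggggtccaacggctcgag
Bub3, chr7:131560220-131560369, plus strand: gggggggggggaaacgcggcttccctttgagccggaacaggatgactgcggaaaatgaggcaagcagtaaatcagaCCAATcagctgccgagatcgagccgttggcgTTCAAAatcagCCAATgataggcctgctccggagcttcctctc
Cenpa, chr5:30666736-30666885, plus strand: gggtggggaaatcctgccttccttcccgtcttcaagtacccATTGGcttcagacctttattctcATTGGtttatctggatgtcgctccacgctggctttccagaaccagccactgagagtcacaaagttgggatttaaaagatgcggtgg
Bub1b, chr2:118598061-118598210, plus strand: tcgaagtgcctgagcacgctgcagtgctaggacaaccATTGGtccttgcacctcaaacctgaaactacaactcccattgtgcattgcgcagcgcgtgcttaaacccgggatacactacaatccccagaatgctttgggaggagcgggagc
Cenpt, chr8:105852009-105852158, minus strand: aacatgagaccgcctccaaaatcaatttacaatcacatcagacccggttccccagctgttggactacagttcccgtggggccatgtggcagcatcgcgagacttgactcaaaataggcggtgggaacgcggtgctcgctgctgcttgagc
Cenpb, chr2:131180068-131180217, minus strand: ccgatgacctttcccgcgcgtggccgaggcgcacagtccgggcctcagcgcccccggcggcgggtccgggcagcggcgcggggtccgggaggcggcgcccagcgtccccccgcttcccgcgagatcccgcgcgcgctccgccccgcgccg

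In the Prc1 window shown the CCAAT match begins 62 bases and the CHR match 30 bases before the start. In the Bub3 window shown CCAAT matches begin 74 and 32 bases before the start on either side of a CHR match at 43. Both genes have another listed start. From it the CCAAT and CHR matches of Prc1 begin 37 and 5 bases before. Those of Bub3 begin 198 and 156 bases (CCAAT) and 167 bases (CHR) before. Cenpa and Bub1b hold CCAAT matches in the stretch shown and a CHR match after the start, 17 bases after it in Cenpa and 41 in Bub1b. Bub1b also holds TTCGAA 188 bases before the start, outside the stretch shown. Neither motif was found in the windows of Cenpt and Cenpb, which says only that these letters are not there. The windows of Birc5, Nuf2, Nusap1 and Mad2l1 hold neither motif too. Their log2 fold changes with PP242, described below, were -1.84, -1.80, -1.75 and -1.61. Over the 250 bases upstream, a CHR match was present in 8 of the 37 genes (21.6%), against 19.6% of 27025 genes in the table, and a CCAAT match in 19 of 37 (51.4%) against 37.5%. With the 50 bases after the start included, a choice made after seeing the upstream result, the CHR share was 17 of 37 (45.9%) against 21.7%, and the share with both motifs was 14 of 37 (37.8%) against 8.61%. An E2F match (TTCGCGC or TTGGCGC, either strand) was upstream of 2 of 37 genes, Ska2 and Cenpl (5.41%), against 3.66%. These are matches of letters, not sites shown to be bound.

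The arrays were not alike. On 8 arrays 55.8% to 60.5% of spots were well above background, the scanner software's own call. On the others, DMSO 2, rapamycin 3, PP242 1 and PP242 4, it was 78.0%, 97.9%, 84.2% and 96.2%, with dim probes raised: the 75th percentile of the signal was 51.1, 7.12, 21.9 and 13.6 times the 25th, against 261 to 420 times on the 8. Results are given for these 8 arrays (3 DMSO, 3 rapamycin, 2 PP242) and for all 12. On every one of the 12 arrays all 41 genes exceeded background by that call, and no spot was saturated, so each gene passed the filter on dim probes whatever its change. Of the markers that check the cell label, 7 of 7 measured fibroblast genes, Col1a1 and Vim among them, passed that call on all 8 arrays. None of 6 epithelial and 4 endothelial genes did, with Epcam and Cdh5 passing on none of the 8, and of 5 leukocyte genes Cd3e and Csf1r did. Levels are log2 signals relative to the array's 75th percentile. They are compared between arrays for 1 gene, never between genes.

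With PP242 the set fell almost as a whole. On the 8 arrays 39 of the 41 genes were lower than with DMSO and 0 were higher (limma, Benjamini-Hochberg adjusted over 19714 genes, threshold 0.05), whereas 12.9% of all genes tested were called lower and 12.9% higher. The median log2 fold change was -1.34, against -0.01 over all genes. It ran from -2.23 for Cenpa to 0.47 for Cenpb, and 30 genes lay below -1, a size reached by 7.21% of all genes. In 40 of 41 genes every PP242 array was below every DMSO array, against 29.2% of all genes. The limma test over all 12 arrays called 0 of the 41 genes, against 0.0586% of all genes called lower and 0.328% higher, although their median was -1.12 against 0.38 over all genes. At an unadjusted p under 0.05 that fit had 27 of the 41 lower, against 3.9% of all genes. Its groups of 4 did not overlap, PP242 being lower, in 34 of 41 genes, against 13.8%.

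One library decides that count. Without rapamycin 3, which holds neither DMSO nor PP242 RNA but shares the estimate of the spread, the remaining 11 arrays gave 34 of 41 genes lower with PP242 than with DMSO (9.33% of all genes), the raised DMSO 2, PP242 1 and PP242 4 included. A fit of the 4 PP242 and 4 DMSO arrays alone gave 31 of 41 (6.56%). A fit of all 12 with array quality weights gave 40 lower and Cenpb higher (17.6% lower, 19.1% higher).

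**Figure D1:**
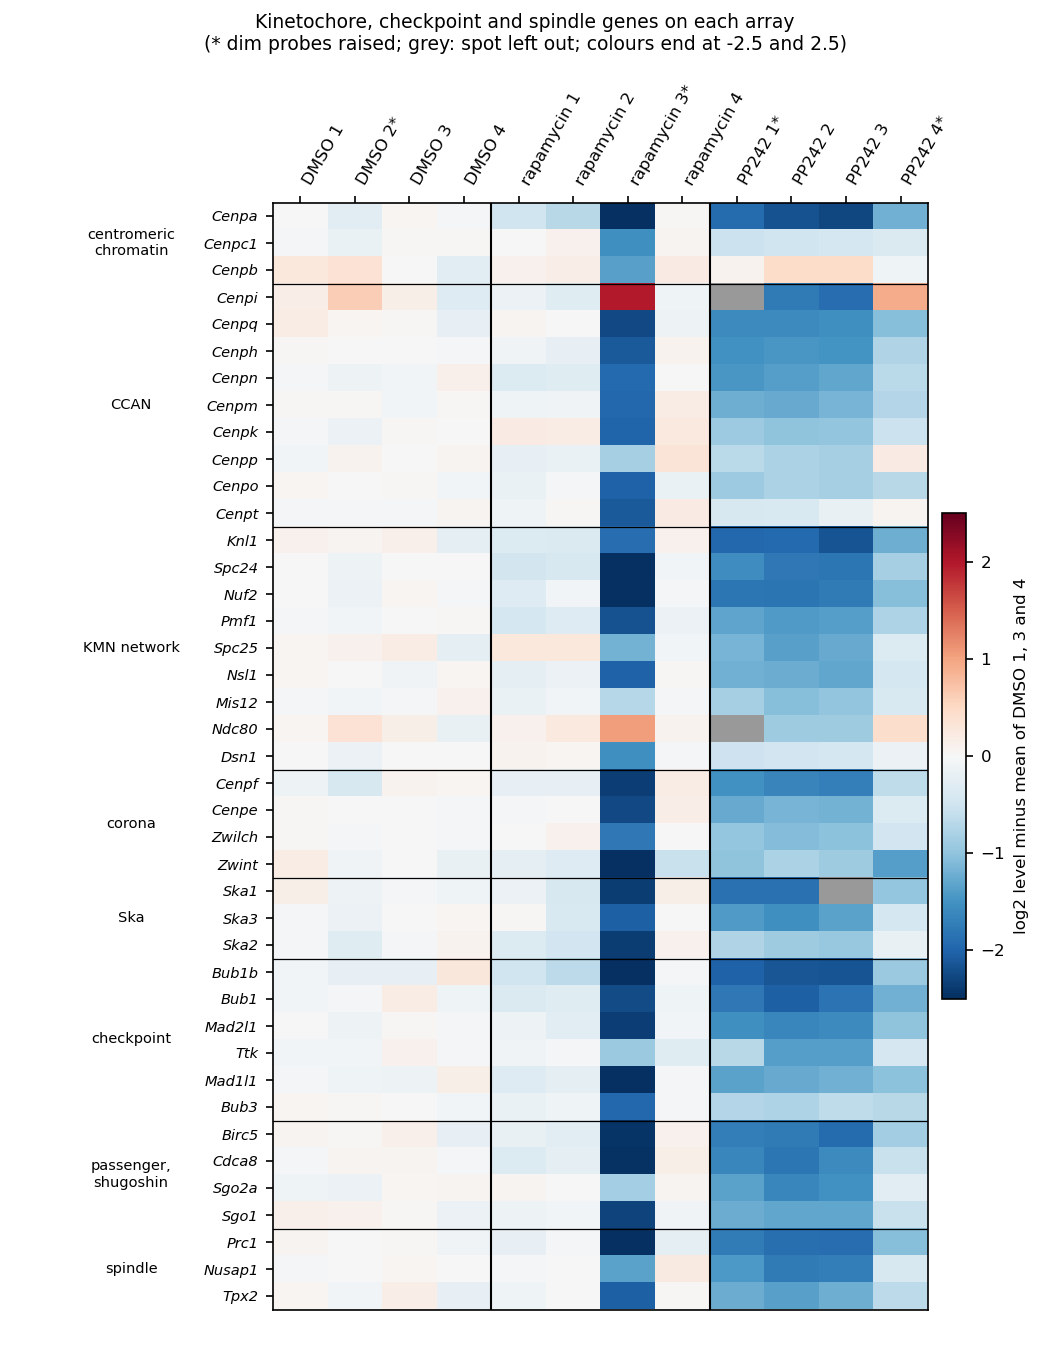
Log2 level of each of the 41 genes (rows, grouped by role, CCAN being the constitutive centromere-associated network) on each of the 12 arrays (columns), minus that gene's mean over DMSO 1, 3 and 4. Blue is lower and red higher, an asterisk marks an array with raised dim probes, grey a spot left out, and values past 2.5 in either direction have the end colour. The PP242 columns are blue in nearly every row and mostly paler on PP242 4, while rapamycin 3 stands apart from the other rapamycin arrays.

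Slides, told apart by the barcode in the file headers, each held all 3 groups. Within slides 1, 2 and 3 the median difference of the genes between PP242 and DMSO was -1.33, -0.89 and -1.34, and 40 of 41, 41 of 41 and 38 of 39 measured genes were lower. On slide 2 the only DMSO array is the raised DMSO 2, and PP242 4 is raised too. On slide 3 the only PP242 array is the raised PP242 1. Slide 1 alone compares arrays without raised dim probes, 1 PP242 array with 2 DMSO arrays. With the slide as a block on the 8 arrays, 33 of 41 genes were lower (3.59% of all genes). Cenpc1, Cenpp, Dsn1, Ndc80, Ska2 and Zwint no longer passed, with adjusted p from 0.0504 to 0.101 in limma.

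The centromeric chromatin genes split. Cenpa encodes the histone H3 variant that marks the centromere. It was at 2.95, 2.68, 3.01 and 2.94 on DMSO arrays 1 to 4, at 2.47, 2.27, 0.36 and 2.99 on rapamycin arrays 1 to 4, and at 1.05, 0.78, 0.69 and 1.76 on PP242 arrays 1 to 4. Every PP242 array was below every DMSO array, and the rapamycin arrays spread widely. On the 8 arrays Cenpa fell by 2.23 with PP242 (SE 0.21, limma adjusted p = 0.001), a 4.69-fold change. By the brightest probe of each gene this was the largest fall of the set. Cenpc1, which ties centromeric chromatin to the outer layers, was at 1.47, 1.35, 1.54 and 1.54 with DMSO, at 1.52, 1.62, -0.01 and 1.59 with rapamycin and at 0.97, 1.02, 1.07 and 1.15 with PP242. It fell by 0.47 (SE 0.09, limma adjusted p = 0.0095), a much smaller change although the groups did not overlap. Cenpb, which binds a sequence in centromeric satellite DNA, was at 2.33, 2.43, 2.07 and 1.81 with DMSO, at 2.18, 2.24, 0.72 and 2.27 with rapamycin and at 2.16, 2.54, 2.54 and 1.96 with PP242. On the 8 arrays its PP242 values lay above its DMSO values, by 0.47 (SE 0.15), a separation seen in 29.7% of all genes, and did not pass (limma adjusted p = 0.0706). Over all 12 arrays the groups overlapped and the difference was 0.14. Whether Cenpb passed on the 8 arrays depended on the processing, as described in the last section.

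The constitutive centromere-associated network is the inner kinetochore layer built on CENP-A chromatin. Of its 9 measured genes 8 fell on the 8 arrays, with a median of -1.21. Cenph was at 2.20, 2.18, 2.16 and 2.14 with DMSO, at 2.08, 1.96, 0.07 and 2.25 with rapamycin and at 0.65, 0.71, 0.67 and 1.42 with PP242. Its DMSO arrays agreed closely and all PP242 arrays lay below them, PP242 4 the least. Cenph fell by 1.48 (SE 0.11, limma adjusted p = 0.000534). Its partner Cenpk was at 1.05, 0.93, 1.10 and 1.07 with DMSO, at 1.28, 1.25, -0.94 and 1.31 with rapamycin and at 0.17, 0.07, 0.08 and 0.54 with PP242. It fell by 1.00 with PP242 (SE 0.08, limma adjusted p = 0.000675). Cenpi, the third gene of that complex, was at 1.32, 1.75, 1.29 and 0.83 with DMSO, at 0.99, 0.85, 3.12 and 1.05 with rapamycin, and at -0.63, -0.77 and 2.08 on PP242 2, 3 and 4, the spot on PP242 1 being left out as an outlier. Its values were highest on rapamycin 3 and PP242 4, arrays on which most of the set was low or only partly lowered. On the 8 arrays it fell by 1.84 (SE 0.17, limma adjusted p = 0.00103), whereas over 12 arrays the groups overlapped, with a difference of -1.07 (SE 0.78).

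Falls of the others in this network were graded. Cenpq, Cenpp and Cenpo belong to 1 subcomplex, and their log2 fold changes were -1.57, -0.82 and -0.81. Cenpn, which recognises CENP-A nucleosomes, fell by 1.34, and Cenpm by 1.21. Cenpt, which carries a separate link from DNA to the outer kinetochore, was at 0.87, 0.90, 0.90 and 1.00 with DMSO, at 0.82, 0.96, -1.17 and 1.12 with rapamycin and at 0.53, 0.55, 0.74 and 1.00 with PP242. PP242 4 reached the highest DMSO value, and the difference on the 8 arrays, -0.28 (95% interval -0.58 to 0.02), did not pass (limma adjusted p = 0.156).

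**Figure D2:**
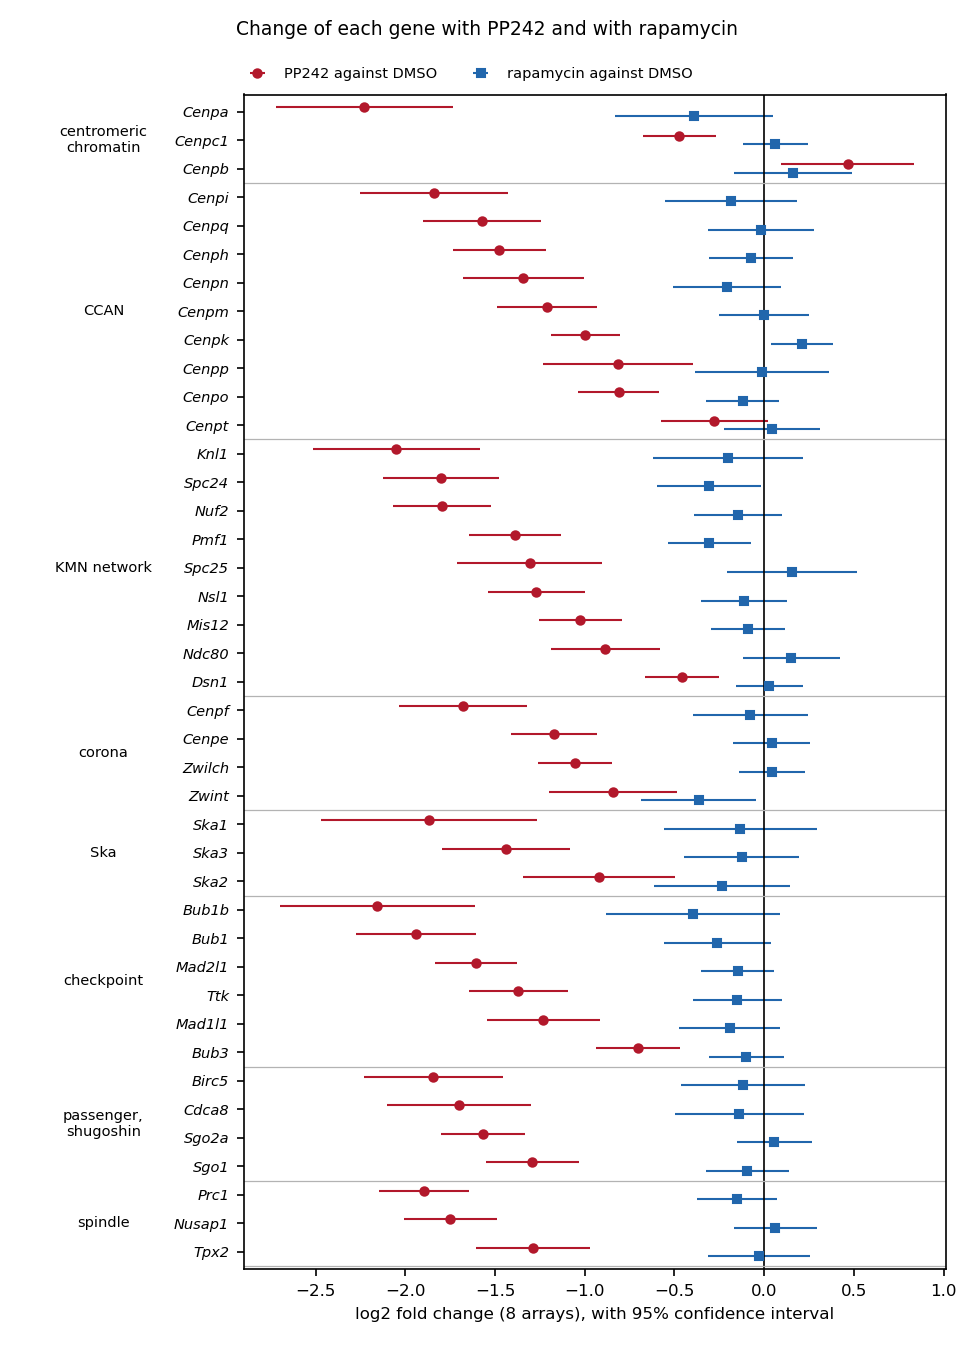
Log2 fold change of each gene on the 8 arrays with its 95% confidence interval from limma, for PP242 against DMSO (red circles) and rapamycin against DMSO (blue squares), by role and ordered by the PP242 value. The PP242 points run from -2.23 for Cenpa to 0.47 for Cenpb, and the rapamycin points from -0.39 to 0.21. Both comparisons use the same DMSO arrays.

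All 9 genes of the KMN network, the outer kinetochore's microtubule-binding core, fell with PP242 on the 8 arrays, with a median of -1.31. Nuf2 and Spc24 are subunits of the Ndc80 complex, which contacts the microtubule. Nuf2 was at 3.52, 3.40, 3.58 and 3.51 with DMSO, at 3.21, 3.47, 0.69 and 3.48 with rapamycin and at 1.73, 1.70, 1.77 and 2.47 with PP242. Spc24 was at 0.84, 0.71, 0.83 and 0.83 with DMSO, at 0.37, 0.43, -1.95 and 0.77 with rapamycin and at -0.72, -0.96, -0.98 and 0.01 with PP242. In both genes all 4 PP242 arrays were below all 4 DMSO arrays, and both fell by 1.80 on the 8 arrays (SE 0.11 for Nuf2 and 0.13 for Spc24, limma adjusted p = 0.000423 and 0.000554). Of the complex's other subunits, Spc25 fell by 1.31. Ndc80, which gives the complex its name, was at 1.76, 2.06, 1.85 and 1.51 with DMSO, at 1.81, 1.96, 2.75 and 1.80 with rapamycin, and at 0.83, 0.82 and 2.14 on PP242 2, 3 and 4, with no value on PP242 1. It fell by 0.88 on the 8 arrays (SE 0.13, limma adjusted p = 0.00425). PP242 4 lay above all 4 DMSO arrays, and over 12 arrays the groups overlapped.

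Knl1, the scaffold that recruits checkpoint proteins, had the largest fall of the network, -2.05 (SE 0.19, limma adjusted p = 0.0011), and its second probe gave -1.68. The Mis12 complex, which joins inner and outer layers, fell unevenly, from -1.39 for Pmf1, -1.27 for Nsl1 and -1.02 for Mis12 to -0.46 for Dsn1. Of the outer corona genes, Cenpe, a kinesin that carries chromosomes to the spindle equator, was at 4.23, 4.18, 4.22 and 4.15 with DMSO, at 4.17, 4.18, 1.93 and 4.37 with rapamycin and at 2.93, 3.03, 3.02 and 3.86 with PP242. Zwilch, a subunit of the complex that brings dynein to kinetochores, was at 1.83, 1.78, 1.81 and 1.75 with DMSO, at 1.81, 1.90, 0.01 and 1.81 with rapamycin and at 0.83, 0.72, 0.77 and 1.31 with PP242. Each was lower on all PP242 arrays than on any DMSO array, by 1.17 (SE 0.10) for Cenpe and 1.05 (SE 0.09) for Zwilch on the 8 arrays. The corona gene Cenpf fell by 1.68 and Zwint, a partner of Knl1, by 0.84.

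The Ska complex follows the ends of microtubules as they shorten. Ska3 was at 0.61, 0.51, 0.65 and 0.70 with DMSO, at 0.68, 0.27, -1.39 and 0.64 with rapamycin and at -0.76, -0.88, -0.69 and 0.21 with PP242. It fell by 1.44 on the 8 arrays (SE 0.15, limma adjusted p = 0.00143), with no overlap of PP242 and DMSO. Ska1 was at 2.79, 2.50, 2.59 and 2.54 with DMSO, at 2.49, 2.24, 0.26 and 2.80 with rapamycin and at 0.78, 0.77 and 1.67 on PP242 1, 2 and 4. The spot on PP242 3 was left out as an outlier, so its fall of 1.87 on the 8 arrays (SE 0.24, limma adjusted p = 0.00495) rests on 1 PP242 array. That array is assumed to vary like the other groups, which supply the spread, and Ska1 is among the 39 genes called. Ska2 fell by 0.92 (SE 0.18).

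All 6 spindle checkpoint genes fell on the 8 arrays, with a median of -1.49. Bub1, the kinase that marks kinetochores for checkpoint and cohesion proteins, was at 2.65, 2.69, 2.90 and 2.61 with DMSO, at 2.36, 2.41, 0.48 and 2.61 with rapamycin and at 0.94, 0.68, 0.87 and 1.52 with PP242. Mad2l1, whose product inhibits the activator of the anaphase-promoting complex, was at 2.66, 2.55, 2.72 and 2.65 with DMSO, at 2.56, 2.42, 0.32 and 2.62 with rapamycin and at 1.14, 1.06, 1.09 and 1.66 with PP242. PP242 and DMSO did not overlap in either gene. Bub1 fell by 1.94 (SE 0.14, limma adjusted p = 0.000493) and Mad2l1 by 1.61 (SE 0.10, limma adjusted p = 0.000422). The second, less bright probe of Bub1, well above background on all 8 arrays, gave a smaller change of -0.75 (SE 0.20). Bub1b, which encodes the checkpoint protein BubR1, fell by 2.16 (SE 0.23). The kinase gene Ttk fell by 1.37 and Mad1l1, the platform for Mad2, by 1.23. Bub3, which brings Bub1 and BubR1 to Knl1, fell by 0.71, the least of the group, from a mean of 4.31 ± 0.05 (SD, n = 3) to 3.60 ± 0.10 (SD, n = 2).

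Among passenger and shugoshin genes, Birc5 (survivin) fell by 1.84 (SE 0.16) and Cdca8 (borealin) by 1.70 (SE 0.17). Shugoshins protect the cohesin that holds sister centromeres together. Sgo2a was at 0.52, 0.48, 0.68 and 0.69 with DMSO, at 0.71, 0.64, -0.22 and 0.71 with rapamycin and at -0.70, -1.0, -0.88 and 0.37 with PP242. Sgo1 was at 3.67, 3.65, 3.57 and 3.39 with DMSO, at 3.42, 3.48, 1.24 and 3.45 with rapamycin and at 2.30, 2.25, 2.25 and 3.00 with PP242. Both were lower on every PP242 array than on any DMSO array, and on the 8 arrays Sgo2a fell by 1.57 and Sgo1 by 1.29 (SE 0.10 and 0.11). The second probe of Sgo2a gave a larger change, -2.50 (SE 0.27). On DMSO 1, 2 and 3 that probe was the brighter, at 0.90, 0.92 and 0.89. The brightest probe was picked by the mean over all arrays, PP242 included, so the drug's effect enters this choice. The 3 spindle genes had the lowest median of any role group, -1.75. Prc1, which bundles the antiparallel microtubules of the spindle midzone, was at 5.12, 5.06, 5.09 and 4.97 with DMSO, at 4.85, 5.03, 2.56 and 4.83 with rapamycin and at 3.30, 3.17, 3.15 and 4.00 with PP242. Nusap1, which stabilises microtubules near chromosomes, was at 2.81, 2.86, 2.91 and 2.85 with DMSO, at 2.83, 2.85, 1.51 and 3.07 with rapamycin and at 1.41, 1.09, 1.12 and 2.46 with PP242. Neither gene's PP242 and DMSO values overlapped, and they fell by 1.90 (SE 0.10) and 1.75 (SE 0.11), with limma adjusted p = 0.000422 for each. Tpx2, the activator of Aurora A on the spindle, fell by 1.29. A total of 12 genes had more than 1 probe, and all 23 of their 25 probes that were well above background on all 8 arrays were lower with PP242. The size of the fall could differ between probes of 1 gene, as for Bub1 and Sgo2a.

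**Figure D3:**
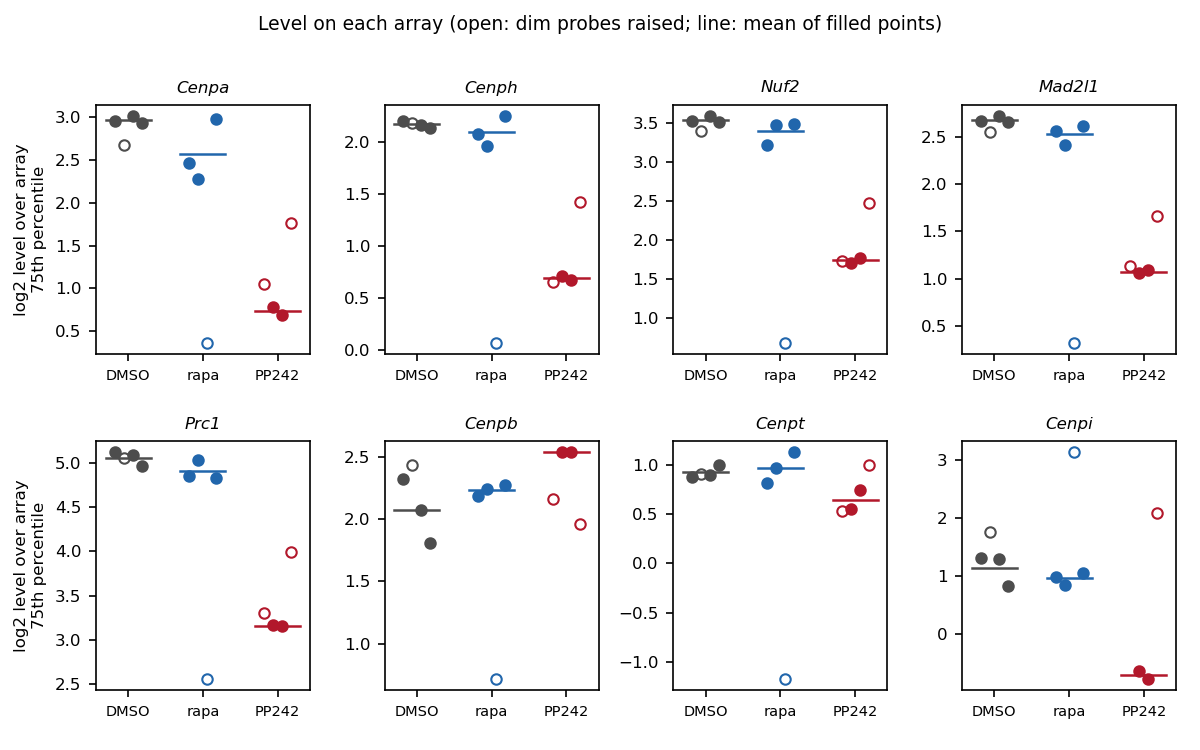
Log2 level of 8 genes on each array relative to the array's 75th percentile, by group, with open circles for arrays with raised dim probes and a line at the mean of the filled points. Cenpa, Cenph, Nuf2, Mad2l1 and Prc1 are low on every PP242 array and high on every DMSO array, Cenpb and Cenpt are not separated over all arrays, and Cenpi is highest on rapamycin 3, at 3.12.

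Rapamycin at 50 nM left the set near its DMSO level on the arrays without raised dim probes. On the 8 arrays 0 of the 41 genes passed in either direction in limma, where 0.00507% of all genes were called lower and 0.0203% higher. By the brightest probe of each gene the median was -0.11 against -0.02 over all genes. These values ran from -0.39 for Bub1b and Cenpa to 0.21 for Cenpk. Less bright probes that were well above background on all 8 arrays reached -0.43 for Cenpf (SE 0.14) and 0.33 for Cenpk (SE 0.09). At an unadjusted p under 0.05, 3 genes were lower (Pmf1, Spc24 and Zwint) and Cenpk higher, against 6.41% and 6.7% of all genes. The 95% intervals of the 41 genes together reached from -0.88 to 0.52, so that falls of the size seen for most genes with PP242 lay outside them, while smaller falls did not. All 3 rapamycin arrays were below all 3 DMSO arrays for 5 of 41 genes, Mad2l1, Nuf2, Pmf1, Spc24 and Zwint, against 10.3% of all genes, and above them for 1, Cenpk, against 8.25%.

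With array quality weights some rapamycin differences passed: 5 of 41 genes on the 8 arrays (4.95% of all genes) and 8 of 41 on the 12 (5.72%). Cenpa, Knl1, Pmf1, Spc24 and Zwint were in both, with 8-array values of -0.59, -0.44, -0.36, -0.42 and -0.36, and Bub1, Bub1b and Ska2 in the second. The 8-array weights were lowest for rapamycin 4 and DMSO 4 (0.175 and 0.186, against 1.39 to 2.22 for the others). For Cenpa the rapamycin arrays 1, 2 and 4 were at 2.47, 2.27 and 2.99, so that rapamycin 4 was at the DMSO level and the other two below it. Over all 12 arrays the rapamycin median was -0.58 with 0 of 41 genes called in limma (0 at an unadjusted p under 0.05, against 0.797% of all genes lower and 0.968% higher). Without rapamycin 3 it was -0.11. The median level of the genes was 0.32 on rapamycin 3 and 1.96 to 2.25 on rapamycin 1, 2 and 4. Within slides 1, 2 and 3 the median rapamycin difference was -0.13, -0.13 and -1.03, and slide 3 holds rapamycin 3.

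**Figure D4:**
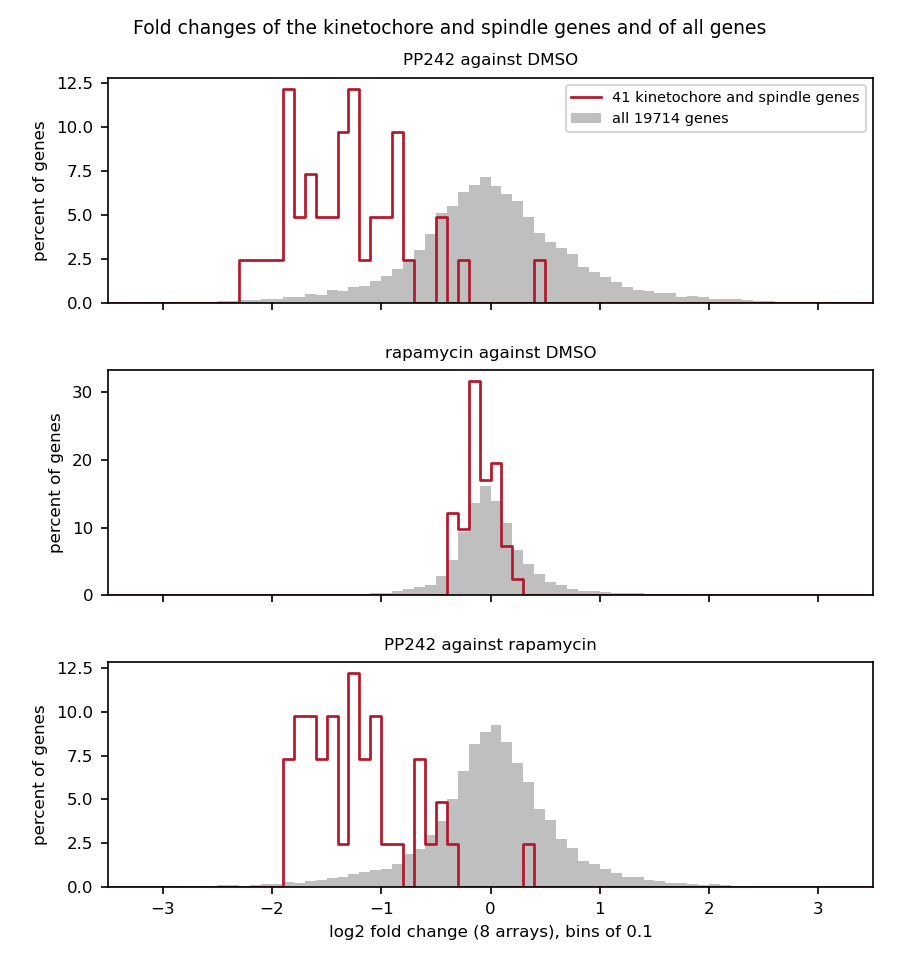
Share of genes per 0.1 of log2 fold change on the 8 arrays, for all 19714 genes tested (grey) and the 41 kinetochore and spindle genes (red line), in the 3 comparisons. The red line lies left of the grey mass for PP242 against DMSO and against rapamycin, with medians of -1.34 and -1.22, and within it for rapamycin against DMSO, with a median of -0.11.

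Compared with each other, the drugs differed. On the 8 arrays 38 of 41 genes were lower with PP242 than with rapamycin and 0 higher (limma; 7.03% of all genes were called lower and 6.77% higher), with a median of -1.22 against 0.02. By the brightest probe of each gene, the largest differences were those of Knl1 (-1.85, SE 0.19), Cenpa (-1.84, SE 0.21) and Nusap1 (-1.81, SE 0.11). Probes of 1 gene differed here too. The second probe of Bub1 gave -0.36 (SE 0.20) against -1.68 by the brightest, and that of Sgo2a -2.49 (SE 0.27) against -1.62. The genes that did not pass were Zwint (-0.48, SE 0.15, limma adjusted p = 0.087), Cenpt (-0.32, SE 0.12, limma adjusted p = 0.145) and Cenpb (0.30, SE 0.15, limma adjusted p = 0.254). For Zwint the 8-array means were 4.03 ± 0.18 with DMSO (SD, n = 3), 3.67 ± 0.16 with rapamycin (SD, n = 3) and 3.19 ± 0.06 with PP242 (SD, n = 2), rapamycin lying between. With the slide as a block 27 of 41 passed (1.76% of all genes). Over 12 arrays 0 of 41 passed and the median was -0.58, with 5 genes lower at an unadjusted p under 0.05 in limma (1.06% of all genes), and without rapamycin 3 it was 32 of 41 (3.89%) and -1.06. Within slides 1, 2 and 3 the median difference was -1.25, -0.85 and -0.33, slide 3 holding rapamycin 3 and PP242 1. The PP242 and rapamycin comparisons with DMSO share the DMSO arrays.

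Other genes of the same structures were read against the shares of all genes called on the 8 arrays, 12.9% lower and 12.9% higher. The limma fit over all 12 arrays called 0 of the 21, 24 and 17 measured genes of the 3 further lists. Of 21 measured further kinetochore, passenger and checkpoint genes 17 were lower with PP242 than with DMSO on the 8 arrays and 0 higher, with a median of -1.36. They include Aurkb, the passenger kinase (-2.45, SE 0.15), Trip13, which disassembles checkpoint complexes (-1.93, SE 0.10), Cdca5 (sororin, -1.62) and Spdl1 (-1.54). Bod1 (-0.24) and Cenpx (-0.22) did not pass. Of 24 further mitotic spindle genes 21 were lower, Racgap1 (-1.59), Aurka (-2.39), Tacc3 (-1.97) and Spag5 (-1.73) with the smallest p, and Numa1, which has interphase roles in the nucleus too, was higher by 0.60 (SE 0.13). Of 17 tubulin and interphase microtubule genes, which serve dividing and resting cells, 7 were lower and 3 higher, with a median of -0.32. The count of lower genes is above the share of all genes (12.9%), and the count of higher genes is near it (12.9%). Tubb4b (-1.71), Tuba1c (-1.20) and Stmn1 (-1.10) fell, and the 3 higher were Dync1h1 (0.67), Dctn1 (0.62) and Tubb2b (0.71). Tubulin genes are near-identical in sequence, and probes of 1 may take up RNA of another. Of 7 fibroblast markers 0 were lower in limma (0 at an unadjusted p under 0.05) and 1, Pdgfrb, was higher, near the share of all genes. Of 4 leukocyte markers tested on the 8 arrays 1 was lower, Csf1r, at -0.37 (SE 0.09, limma adjusted p = 0.0345), and 0 were higher. Lyz2 (1.39, SE 1.03), Ptprc (0.91, SE 0.66) and Cd3e (-0.24, SE 0.38) did not pass. The part of Csf1r in the results was not tested.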

How the data were processed

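RNA from 12 NIH3T3 cultures was measured on one-colour arrays. The deposited scanner files give each spot's intensity on a linear scale, background-subtracted and detrended by Agilent Feature Extraction (10.5.1.1 per the file headers, 10.1 per the submitters' processing notes). A log2 value table deposited by the authors for the same arrays, of unstated making, served as an alternative. Log2 processed intensity minus the array's 75th percentile was used. Control and outlier spots were left out and not imputed, and spots of a probe were averaged. A probe was kept if 4 of 12 (or 2 of 8) arrays or more had it well above background, and the brightest probe represented a gene. Names came from RefSeq accessions (24844 of 41174 probes named). The 8 arrays are those whose 75th percentile exceeded the 25th by over 100 times. That ratio is over all non-control probes, but it was chosen with the raised arrays already known from an earlier account of these data. Limma 3.58.1 (R 4.3.3, with the data.table package, version 1.17.8) fitted the 3 groups together over 25612 (12 arrays) or 19714 genes (8 arrays), two-sided, Benjamini-Hochberg adjusted. It was also run on simulated data, in which a gene had the same spread on every array and no array was raised. That run cannot judge fits that include raised arrays. The number of arrays limits precision. Figures used Python 3.11.15, numpy 2.4.6, pandas 2.3.3 and matplotlib 3.10.9.

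The genes were picked by name and function, with no value in the rule. Still, the genes, lists, tests and the set of 8 arrays were chosen with earlier results of these data known. All 43 genes are accounted for. Values on each array are given for the genes with the 2 smallest p per role group (PP242 against DMSO, 8 arrays) and for Cenpb, Cenpt, Cenpi and Ndc80, the last pair chosen after their values were seen. In the further lists, the 4 genes with the smallest p and the 2 brightest not passing may be named, and others named there were chosen after their values were seen. Alternatives were quantile normalisation, median centring, normexp (offset 50), the deposited values, no filter, a filter on every array, the mean of probes, only the groups compared, slide or replicate blocks, array weights and leaving out each array.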

Additional observations from a re-analysis of the deposited data

Results flagged for a closer look

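In groups of 4, 1 array stood far from the others, by the gap to its nearest neighbour over the group's range (Dixon's 95% value), in 25 of 60 groups checked, where chance flags about 1 in 20. Rapamycin 3 accounts for most. The median level of the genes was 0.32 there against 1.96 on the nearest rapamycin array. Genes low on it were Bub1 (0.48), Cenpb (0.72), Cenpc1 (-0.01), Cenpe (1.93), Cenph (0.07), Cenpk (-0.94), Cenpt (-1.17), Mad2l1 (0.32), Nuf2 (0.69), Nusap1 (1.51), Prc1 (2.56), Sgo1 (1.24), Sgo2a (-0.22), Spc24 (-1.95) and Zwilch (0.01). Cenpi (3.12) and Ndc80 (2.75) were high on it. PP242 4 stood above the other PP242 arrays in the median of the genes (1.55 against 0.88) and in Cenpe (3.86), Cenph (1.42), Mad2l1 (1.66), Nuf2 (2.47) and Sgo1 (3.00). Spc24 was low on DMSO 2 (0.71 against 0.83). On all 3 arrays dim probes were raised, with a 75th percentile of 7.12, 13.6 and 51.1 times the 25th on rapamycin 3, PP242 4 and DMSO 2. Its part in these values was not tested. The falls with PP242 were as large on the 8 arrays that leave all of them out, with a median of -1.34.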

How the results depend on the processing

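No median of the genes in the PP242 comparisons, and no single gene's PP242 difference on the 8 arrays, changed sign under any alternative run. The 8-array rapamycin median, -0.11, was too near 0 for its sign to be read. Calls did change. On the 8 arrays Cenpb was called higher with PP242 than with DMSO in 4 of 11 other settings. These were quantile normalisation, the deposited table, the filter on every array and array weights. Leaving out DMSO 1 also gave that call, 1 of 8 such fits. On the 12 arrays the count of genes lower with PP242 than with DMSO, 0, became 1 with the deposited table, with the filter on every array and with the mean of probes, 31 with only the 2 groups compared and 40 with array weights. Array weights also gave 8 lower for rapamycin against DMSO and 40 for PP242 against rapamycin, and 5 for rapamycin against DMSO on the 8 arrays. Leaving out 1 of the 12 arrays gave 0 to 34 for PP242 against DMSO, 0 to 32 for PP242 against rapamycin and 0 to 0 for rapamycin against DMSO, where only leaving out rapamycin 3 gave calls, and medians of -1.30 to -1.05, -1.06 to -0.38 and -0.77 to -0.11. Leaving out 1 of the 8 gave 33 to 39, 27 to 38 and 0 to 0, with medians of -1.39 to -1.30, -1.25 to -1.21 and -0.15 to -0.07. Median centring moved the 12-array medians to -1.99 for PP242 and -1.16 for rapamycin against DMSO, where it put the median of all genes at -0.46 and -0.39, and array weights moved that of PP242 against rapamycin to -1.25. The deposited table moved the 8-array medians to -1.09 for both PP242 comparisons. The cause was not tested. With the replicate block 35 genes were lower for PP242 against DMSO on the 8 arrays (9.12% of all genes), 27 for PP242 against rapamycin (2.7%) and 0 on the 12 arrays, where the median was -1.14. Deviations of same-numbered arrays from their group means over the 12 arrays correlated at -0.90 to 0.78. The raised arrays enter those means, so these values cannot decide whether the numbers pair the samples, and no pairing was assumed. DMSO 4 correlated at 0.51 with rapamycin 4, at 0.19 and 0.17 with rapamycin 1 and 2, and at -0.21 with the raised PP242 4. With 2 PP242 arrays among the 8, leaving out either leaves 1, assumed to vary like the other groups.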
